A study of Mus musculus with 12 samples.

Results

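Respiratory complex I (NADH:ubiquinone oxidoreductase) is the entry point of the mitochondrial electron transport chain: it takes electrons from NADH, passes them along a row of iron-sulfur clusters to ubiquinone and pumps protons across the inner membrane. Its core is built from subunits of both genomes, with the NADH- and quinone-binding arm made in the cytosol from nuclear genes and the proton-pumping membrane arm resting on proteins read from mitochondrial DNA. Accessory subunits surround the core, and assembly factors (Ndufaf genes) help to build the complex without staying in it. Mature neutrophils are known to draw most of their ATP from glycolysis and to hold few mitochondria.

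The genes described here are the protein-coding mouse genes whose symbol starts with Nduf or mt-Nd and that had at least 1 read. Of 53 such genes in the table, 47 had a count, out of 20019 genes with a count in the whole series. These are 36 nuclear structural subunits, 4 assembly factors, 6 mitochondrially encoded genes and Ndufa4, which keeps a complex I name but is now placed in complex IV. Genes were tested if at least 3 libraries had more than 1 CPM (reads of a gene relative to all reads on genes in that library), and 39 of the 47 passed among 12488 genes.

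RNA was sequenced from neutrophils sorted by flow cytometry as Ly6Ghi, Ly6Cint and CD11b+ cells from male C57BL/6N mice of 8 to 10 weeks. The 3 control libraries came from spleens of untreated mice, 4 libraries came from livers 24 hours after 1 intraperitoneal injection of CCl4 (carbon tetrachloride, 1 mL per kg in corn oil, a hepatotoxin that is activated in hepatocytes), and 5 libraries came from livers 72 hours after it. The groups are called control splenic, 24-hour and 72-hour neutrophils, and no allele or transgene was involved. The controls differ from both liver groups in organ as well as in injury, so these cannot be told apart in either liver-to-spleen comparison, and both comparisons share the same 3 spleens. In bulk samples fewer cells of a type and less RNA per cell cannot be told apart.

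The strand on which reads were counted limits every value below. The library kit keeps strand, and the strand setting of the read counter is not given in the sources used here. Between 2.71% and 3.18% of the uniquely aligned reads of a library lay on a gene. All 30 features with the most reads had an exon opposite another gene on the other strand, as had 31.9% of the 20019 counted genes, and features with such an exon held 85.0% of all counts. Gm10252, which lies opposite the ferritin gene Ftl1, had 966036 reads over the 12 libraries against 5059 for Ftl1. Gtf2ird2, opposite Ncf1, a subunit gene of the neutrophil NADPH oxidase, had 402054 against 5317, and Gm15441, opposite Txnip, had 391337 against 3994. This is the pattern of reads given to the strand opposite their transcript, and it holds for nuclear as well as mitochondrial genes. A value below is therefore the number of reads that the deposited table gives to a gene name. It may hold reads from the other strand, and it is not taken as the level of that gene's mRNA. Where a gene is said to rise or fall, these counts did.

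Low counts on genes limited the measurements further, with most uniquely aligned reads of each library on no gene. Counts on genes ran from 1267089 to 3017403 per library, so 1 CPM was 1 to 3 reads. Spleen replicate 3 stood apart from the other control spleens (mean chi-square per gene 37.5 and 41.3 against them, and 2.47 between those 2). The liver groups were split too. By the same measure, 72-hour replicates 4 and 5 differed from replicates 1 to 3 by 20.7 to 38.1 (6.72 between them). Among the 24-hour libraries the pairs ran from 8.87 (replicates 1 and 2) to 32.9. The summed level of 7 markers of immature neutrophils was 558 normalized CPM in spleen replicate 3 and 3705 and 3777 in the other spleens. It was 14.1 to 68.7 in the 24-hour and 7.59 to 38.9 in the 72-hour libraries. Ngp, Ltf and Camp made up nearly all of the spleen sum (medians 1891, 1637 and 170). Elane, a defining marker, was at 0 everywhere, and Mpo and Ctsg had at most 2 reads in any library. Prtn3 had a median of 1.09 in spleen and 4.69 at 24 hours. Unaligned reads were 1.91% and 1.98% of 72-hour replicates 2 and 3 and about 50% elsewhere (49.6% to 50.7%). The neutrophil markers S100a8, S100a9, Csf3r and Cxcr2 had counts in all 12 libraries. The 8 listed neutrophil markers summed to 1816 to 7087 normalized CPM in spleen, 1140 to 2636 at 24 hours and 2079 to 2777 at 72 hours, so that these ranges overlapped. Against control, 2 of the 8 were called lower at 24 hours and 3 at 72 hours. The median of S100a9 was 3937 in spleen (lowest library 339), 370 at 24 hours and 792 at 72 hours. That of Ly6g, the gene of the sorting marker, was 37.1 (lowest spleen library 9.33), 11.1 and 2.71. Other markers moved less: the median was 331, 311 and 327 for Cxcr2 and 526, 337 and 585 for Csf3r. The 8 hepatocyte markers summed to 2.32 to 6.11 normalized CPM in spleen, 14.9 to 20.2 at 24 hours and 3.24 to 30.6 at 72 hours, with Ttr at 0. Apoa2 alone made up 12.7 to 19.6 of the 24-hour sum, where Alb was at most 1.46 and Apoa1 and Ahsg were at 0. The part of these differences in the results below was not tested, apart from the values given with and without the libraries concerned.

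The mitochondrial members show how the strands of the mitochondrial genome enter the counts, and their sequences are given for that reason. Both strands of mitochondrial DNA are transcribed as long precursors that are cut into single RNAs. In GRCm38, mt-Nd1 (chrM:2751-3707), mt-Nd2 (chrM:3914-4951), mt-Nd3 (chrM:9459-9806), mt-Nd4l (chrM:9877-10173), mt-Nd4 (chrM:10167-11544) and mt-Nd5 (chrM:11742-13565) lie on the plus strand, and mt-Nd6 (chrM:13552-14070) is the only protein-coding gene of the minus strand. The coding ends of mt-Nd5 and mt-Nd6 run into each other from opposite sides and share 14 bases, chrM:13552-13565, shown in capitals in the last 60 bases of each transcript (GENCODE vM21, each 5′ to 3′ on its own strand):
mt-Nd5: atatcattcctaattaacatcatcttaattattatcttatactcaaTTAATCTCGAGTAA
mt-Nd6: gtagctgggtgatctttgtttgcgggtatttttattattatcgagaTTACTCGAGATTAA
The 14 capital letters of mt-Nd6 are the reverse complement of those of mt-Nd5, so a read over this stretch is given to a gene only by its strand.

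The pair mt-Nd4l and mt-Nd4 overlaps on the same strand instead. The last 7 bases of mt-Nd4l are the first 7 of mt-Nd4 (chrM:10167-10173), in capitals in the last 60 bases of the first and the first 60 of the second:
mt-Nd4l: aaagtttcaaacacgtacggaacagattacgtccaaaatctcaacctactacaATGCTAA
mt-Nd4: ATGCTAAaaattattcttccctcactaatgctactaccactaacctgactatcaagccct
The base composition follows the strand. G and T make up 71.9% of the 519 bases of mt-Nd6, and 35.4% (mt-Nd2) to 43.7% (mt-Nd3) of the 6 plus-strand members.

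Most reads given to mt-Nd genes were given to mt-Nd6. It held 86.9% to 93.9% of the mt-Nd counts of a library. Per kilobase of exon its mean level over the 12 libraries was 1679 normalized CPM (CPM after scaling with the trimmed mean of M-values, TMM), against 26.5 for mt-Nd5, 20.4 for mt-Nd2, 17.3 for mt-Nd1 and 14.6 for mt-Nd4. The same held for the strand as a whole: the 9 annotated genes of the mitochondrial minus strand, with 1068 exon bases, had 26017 counts, and the 28 genes of the plus strand, with 14373 exon bases, had 9901. Of the plus-strand genes of other complexes, mt-Co2 had 25 counts in all 12 libraries together, mt-Co3 had 16 and mt-Atp6 had 2. Which transcript the reads given to each mitochondrial gene came from was not tested.

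Few complex I genes were called. The edgeR quasi-likelihood test was used, and a call required an adjusted p (Benjamini-Hochberg over all 12488 genes) below 0.05 together with a log2 fold change of 0.5 or more in either direction. In 24-hour against control neutrophils 3 of the 39 tested members were called (Ndufa2 and mt-Nd2 higher, Ndufv3 lower), where 9.75% of all genes tested were called, 5.35% higher and 4.4% lower. In 72-hour against control neutrophils 2 were called (mt-Nd2 higher, Ndufv3 lower), beside 5.33% of all genes, 2.63% higher and 2.71% lower. Between 72-hour and 24-hour neutrophils 3 were called, all higher at 72 hours (mt-Nd1, mt-Nd2 and mt-Nd4), beside 4.49% of all genes, 1.65% higher and 2.84% lower. When all 20019 counted genes were tested, 3, 4 and 4 members were called in the same order, beside 7.31%, 4.83% and 4.11% of genes. Groups did not overlap for 8 of the 39 members in the first comparison (20.5%, beside 22.8% of all genes), for 6 in the second (15.4%, beside 12%) and for 4 in the third (10.3%, beside 9.51%). These shares lie near those of all genes.

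The calls differed in how much they leaned on single libraries. Both calls in 72-hour against control neutrophils, mt-Nd2 and Ndufv3, held in each of the 12 fits that left out 1 library. Each of the other 6 was lost in 5 to 8 of those fits.

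**Figure D1:**
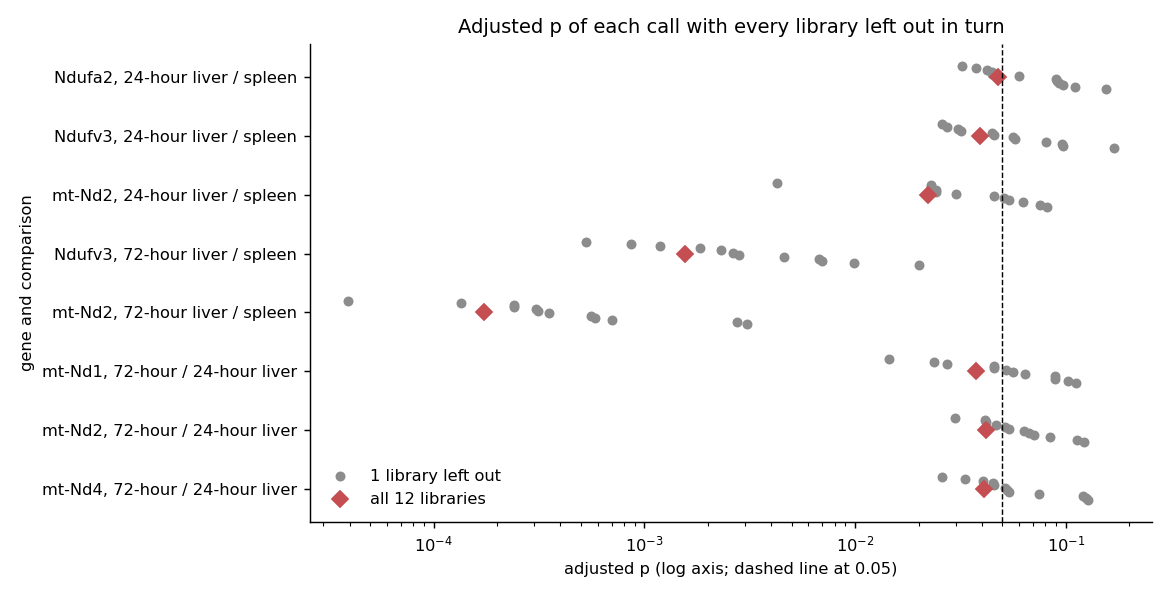
Adjusted p of the edgeR quasi-likelihood test (log axis) for each called gene and comparison, with all 12 libraries (red diamonds) and with each library left out in turn (grey points); the dashed line is the threshold of 0.05. The 72-hour calls of Ndufv3 and mt-Nd2 stay left of the line, and the points of the other 6 calls lie on both sides.

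Levels of mt-Nd6 varied about as much within groups as between them. Its normalized CPM in control spleen replicates 1 to 3 was 981, 875 and 383. In 24-hour replicates 1 to 4 it was 319, 544, 759 and 1015, and in 72-hour replicates 1 to 5 it was 616, 1287, 1386, 1192 and 1099. The lowest spleen library was replicate 3, the one that stood apart, and every pair of groups overlapped. Group means were 746 ± 319 (SD, n = 3), 659 ± 298 (n = 4) and 1116 ± 299 (n = 5). No difference passed the edgeR test. The log2 fold change was -0.18 (SE 0.34, adjusted p = 0.782) for 24-hour against control neutrophils, 0.58 (SE 0.33, adjusted p = 0.402) for 72-hour against control, and 0.76 (SE 0.30, adjusted p = 0.152) for 72-hour against 24-hour neutrophils. Without spleen replicate 3 the comparisons with spleen gave -0.50 (edgeR adjusted p = 0.354) and 0.26 (edgeR adjusted p = 0.764), and with all 20019 counted genes tested the 72-hour against 24-hour difference passed (edgeR adjusted p = 0.0121).

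**Figure D2:**
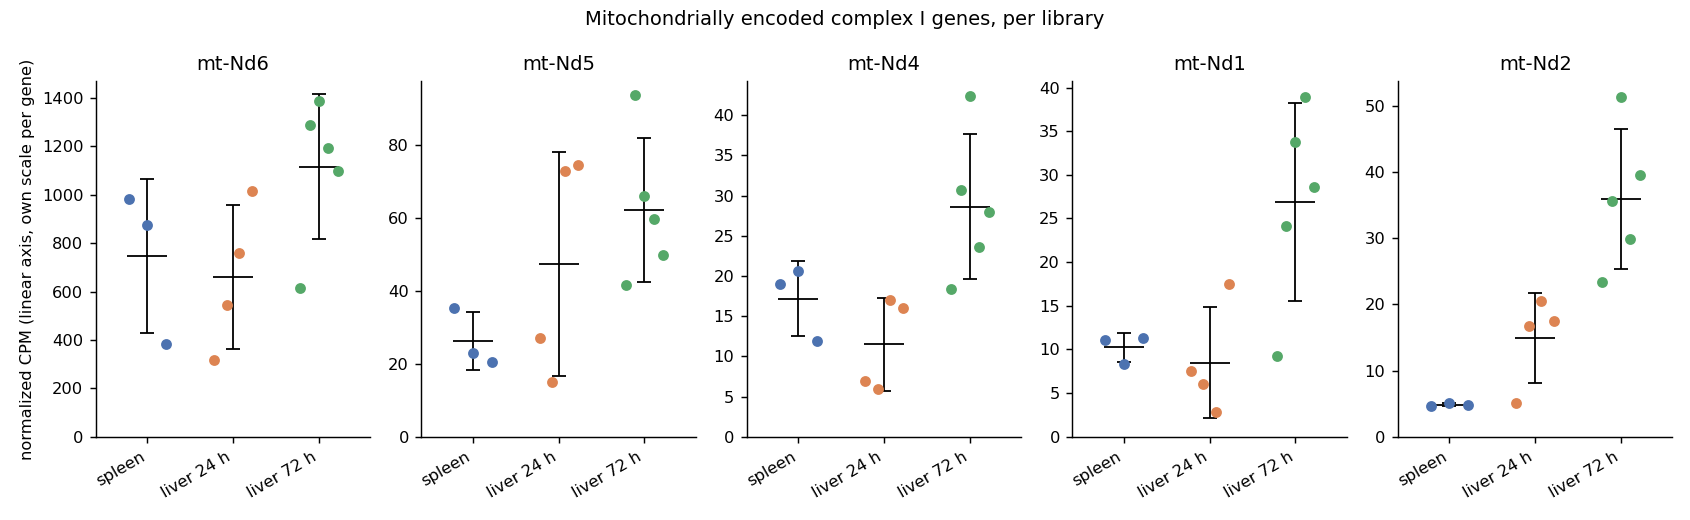
Normalized CPM of the 5 tested mitochondrially encoded complex I genes in each library (points), with the group mean and SD (bars); each panel has its own linear axis from 0. The 72-hour libraries of mt-Nd2 all lie above every other library, and the groups of mt-Nd6 overlap.

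Counts given to mt-Nd2, a proton-pumping subunit of the membrane arm, rose at both times. Control spleen replicates 1 to 3 had 4.64, 5.07 and 4.82 normalized CPM, from 10, 14 and 15 reads. The 24-hour replicates had 5.05, 16.8, 20.5 and 17.5, so that replicate 1 lay within the control range and the other 3 above it. The 72-hour replicates had 23.3, 35.6, 51.4, 29.9 and 39.6, all above every other library. Against control neutrophils the log2 fold change was 1.61 at 24 hours (SE 0.44, edgeR adjusted p = 0.0222) and 2.88 at 72 hours (SE 0.43, edgeR adjusted p = 1.7e-04). The 72-hour level was also above the 24-hour level, by 1.27 on the log2 scale (SE 0.35, edgeR adjusted p = 0.0419). The 24-hour call against control was lost without spleen replicate 1 or 2 or 24-hour replicate 2, 3 or 4, with an edgeR adjusted p of up to 0.081 and log2 fold changes of 1.42 to 1.90 over the 12 such fits, and also in a fit of 2 groups (edgeR adjusted p = 0.056) and with limma-voom (adjusted p = 0.104). The call between the liver groups was lost without spleen replicate 1 or 2, 24-hour replicate 1, 2 or 4 or 72-hour replicate 2, 3 or 5 (0.98 to 1.46, edgeR adjusted p of up to 0.122), with upper-quartile scaling (edgeR adjusted p = 0.0513) and among genes without an opposite-strand gene (edgeR adjusted p = 0.102).

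mt-Nd1, the membrane-arm subunit beside the quinone site, had higher normalized counts at the later liver time point. Its normalized CPM was 11.1, 8.34 and 11.3 in the control spleens, 7.57, 6.0, 2.83 and 17.5 in the 24-hour replicates, and 9.22, 24.2, 33.7, 38.9 and 28.6 in the 72-hour replicates. The liver groups overlapped through 72-hour replicate 1 and 24-hour replicate 4. The log2 fold change of 72-hour against 24-hour neutrophils was 1.67 (SE 0.45, edgeR adjusted p = 0.0373). Against control it was -0.28 for 24-hour neutrophils (edgeR adjusted p = 0.771) and 1.39 for 72-hour neutrophils (edgeR adjusted p = 0.0931). The call was lost without any 1 of 24-hour replicates 1 to 3 or 72-hour replicates 2 to 5, at 1.39 to 2.27 and an edgeR adjusted p of up to 0.112, with limma-voom (adjusted p = 0.0568) and among genes without an opposite-strand gene (edgeR adjusted p = 0.0599).

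mt-Nd4, another proton-pumping subunit, gave the same kind of difference without overlap of the liver groups. The control spleens had 19.0, 20.7 and 11.9 normalized CPM, the 24-hour replicates 6.94, 6.0, 17.0 and 16.0, and the 72-hour replicates 18.4, 30.7, 42.4, 23.6 and 27.9. Each 72-hour library lay above each 24-hour library, and the range of the controls crossed both. The 72-hour against 24-hour log2 fold change was 1.34 (SE 0.37, edgeR adjusted p = 0.0407). It was -0.59 (edgeR adjusted p = 0.381) and 0.75 (edgeR adjusted p = 0.325) against control at 24 and 72 hours. The call was lost without spleen replicate 1 or 2, 24-hour replicate 1 or 2 or 72-hour replicate 2, 3 or 5 (1.12 to 1.59, edgeR adjusted p of up to 0.127), with upper-quartile scaling (edgeR adjusted p = 0.051) and among genes without an opposite-strand gene (edgeR adjusted p = 0.099).

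mt-Nd5, the subunit at the far end of the membrane arm, was not called in any comparison. The control spleens had 35.3, 22.8 and 20.6 normalized CPM, the 24-hour replicates 27.1, 15.0, 72.8 and 74.4, and the 72-hour replicates 41.7, 93.6, 65.9, 59.7 and 49.96. The 72-hour libraries all lay above the controls, and the 24-hour libraries fell into a low pair and a high pair. The log2 fold change against control was 0.85 for 24-hour neutrophils (edgeR adjusted p = 0.212) and 1.26 for 72-hour neutrophils (edgeR adjusted p = 0.0867), with an edgeR adjusted p = 0.562 between the liver groups. mt-Nd4l had 1 read, in spleen replicate 1. mt-Nd3 had none in any library, and 3 reads over the control group, the limit that a count of 0 allows for counting error, would be 0.374 normalized CPM.

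The summed level of mt-Nd1, mt-Nd2, mt-Nd4, mt-Nd4l and mt-Nd5 was 48.6 to 70.5 normalized CPM in control, 43.8 to 125 in 24-hour and 92.7 to 193 in 72-hour neutrophils. The sum did not overlap between 72-hour and control libraries, and it overlapped between the 24-hour libraries and both other groups. The 72-hour against 24-hour calls rest in part on 72-hour replicates 2 and 3: without those libraries of few unaligned reads none of the 3 calls remained, at log2 fold changes of 1.59 for mt-Nd1 (edgeR adjusted p = 0.126), 1.05 for mt-Nd2 (edgeR adjusted p = 0.205) and 1.03 for mt-Nd4 (edgeR adjusted p = 0.221). The 72-hour call of mt-Nd2 against control held without them (2.65, edgeR adjusted p = 0.00225) and without spleen replicate 3 (2.87, edgeR adjusted p = 7.0e-04).

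Among nuclear members, Ndufv3 was the only gene called against control at both times, lower in each. Ndufv3 (ENSMUSG00000024038, chr17:31520115-31531331, plus strand, GRCm38) encodes an accessory subunit of the NADH-binding arm that is made in a short and a long form, which counts per gene do not separate. No annotated exon lies opposite it. Control spleen replicates 1 to 3 had 141, 115 and 95.5 normalized CPM, the 24-hour replicates 65.0, 66.0, 43.1 and 58.4, and the 72-hour replicates 31.4, 32.1, 23.2, 54.2 and 61.0. Every liver library lay below every control library, and the liver groups overlapped. Its mean was 117 ± 23.1 (SD, n = 3) in control, 58.1 ± 10.5 (n = 4) in 24-hour and 40.4 ± 16.3 (n = 5) in 72-hour neutrophils. The log2 fold change was -1.01 at 24 hours (SE 0.31, edgeR adjusted p = 0.0393) and -1.55 at 72 hours (SE 0.29, edgeR adjusted p = 0.00156). The difference between the liver groups was -0.54 (edgeR adjusted p = 0.267). Leaving out spleen replicate 1 or 2 or any 24-hour replicate ended the 24-hour call (-1.14 to -0.85, edgeR adjusted p of up to 0.169), and no library ended the 72-hour call. The 24-hour call was also lost with upper-quartile scaling (edgeR adjusted p = 0.060) and among genes without an opposite-strand gene (edgeR adjusted p = 0.0841). Without spleen replicate 3 both calls held, at -1.14 (edgeR adjusted p = 0.0274) and -1.68 (edgeR adjusted p = 0.00118), and without 72-hour replicates 2 and 3 the 72-hour value was -1.26 (edgeR adjusted p = 0.024).

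Ndufa2, an accessory subunit of the same arm with a thioredoxin-like fold, moved the other way at 24 hours. The gene (ENSMUSG00000014294, chr18:36742332-36744557, minus strand) shares 66 of its 572 exon bases with Tmco6 on the opposite strand. It had 41.3, 33.3 and 32.8 normalized CPM in the control spleens, 47.9, 85.8, 79.2 and 73.7 in the 24-hour replicates, and 41.7, 25.9, 26.9, 50.7 and 57.8 in the 72-hour replicates. Each 24-hour library lay above each control library, and the 72-hour libraries lay on both sides of the controls. The log2 fold change was 1.0 at 24 hours (SE 0.32, edgeR adjusted p = 0.0477), 0.17 at 72 hours (edgeR adjusted p = 0.870) and -0.83 between 72-hour and 24-hour neutrophils (edgeR adjusted p = 0.081). Without spleen replicate 3 the 24-hour value was 0.94 and was not called (edgeR adjusted p = 0.0965), and the call was also lost without spleen replicate 1 or 2, 24-hour replicate 2, 3 or 4 or 72-hour replicate 1 (0.90 to 1.15, edgeR adjusted p of up to 0.155), with a replicate block (edgeR adjusted p = 0.0671) and with limma-voom (adjusted p = 0.0519).

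The other 3 of the 5 nuclear members with the highest mean counts were not called by edgeR in any comparison. Ndufs1, the largest core subunit, which carries iron-sulfur clusters, had 73.8, 72.1 and 137 normalized CPM in the control spleens, the last being replicate 3. It had 38.5, 49.2, 84.9 and 112 at 24 hours and 64.0, 66.7, 58.8, 60.4 and 46.7 at 72 hours, so that all 72-hour libraries lay below the controls (log2 fold change -0.67, edgeR adjusted p = 0.254). Ndufb2, an accessory subunit of the membrane arm, had 32.0, 59.4 and 72.0 in the control spleens, 51.1, 66.0, 71.4 and 63.5 at 24 hours and 63.4, 32.5, 47.7, 53.5 and 56.5 at 72 hours, and its groups overlapped in each comparison. Ndufa13, an accessory subunit also known as GRIM-19, had 12.5, 13.4 and 9.0 in the control spleens, 4.41, 4.20, 5.66 and 8.75 at 24 hours and 11.9, 9.67, 13.6, 9.73 and 8.44 at 72 hours. All 24-hour values of Ndufa13 were below the controls, at a log2 fold change of -1.02 that missed the threshold (edgeR adjusted p = 0.132). Exons of Ndufs1 share 498 bases with opposite-strand genes (Ino80dos and Eef1b2), those of Ndufb2 share 302 (Gm16272 and Braf) and those of Ndufa13 share 375 (Tssk6).

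**Figure D3:**
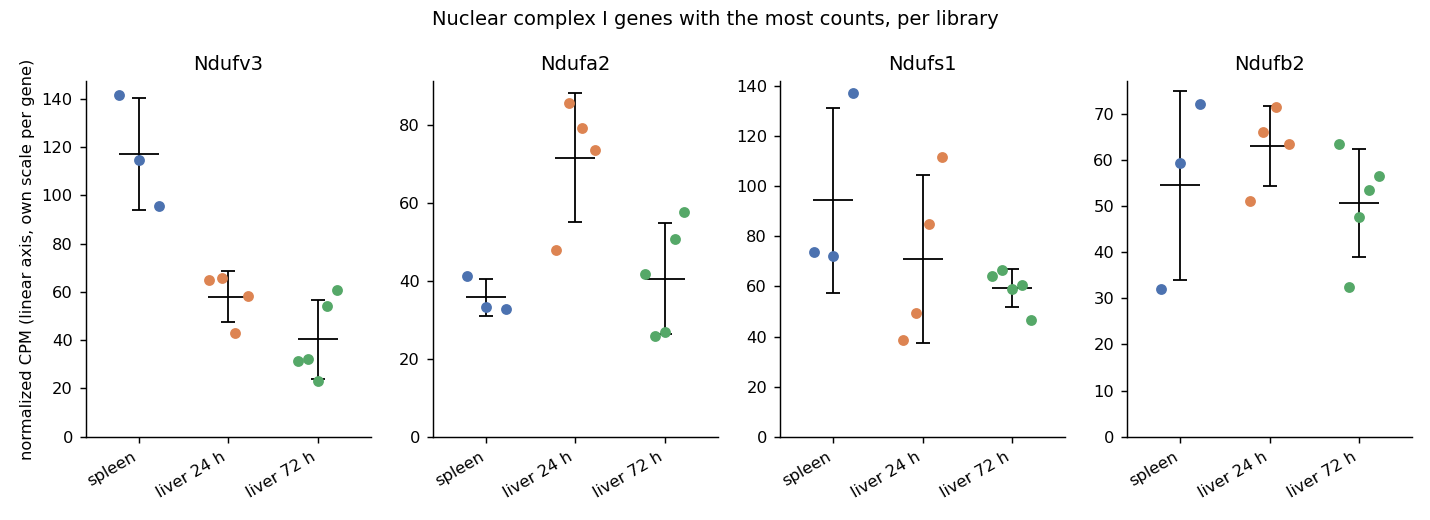
Normalized CPM of the 4 nuclear complex I genes with the highest mean level in each library (points), with the group mean and SD (bars), on linear axes from 0. The liver libraries of Ndufv3 all lie below the 3 controls, and those of Ndufs1 and Ndufb2 overlap them at 24 hours.

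All 7 nuclear core subunits were tested and none was called in any comparison by edgeR, the DESeq2 Wald test or limma-voom. In edgeR, Ndufs7 and Ndufs8 at 24 hours, Ndufs1 at 72 hours and Ndufs7 between the liver groups had an unadjusted p below 0.05. Ndufv1, which binds NADH and flavin, averaged 0.967 ± 0.795 normalized CPM in control (SD, n = 3), 0.522 ± 0.692 in 24-hour (n = 4) and 1.10 ± 1.06 in 72-hour neutrophils (n = 5), which is a few reads per library. Its partner Ndufv2, an iron-sulfur protein, averaged 6.32 ± 3.13, 3.64 ± 2.67 and 4.01 ± 2.07. Ndufs3, a subunit of the stalk between the arms, averaged 6.57 ± 4.14, 5.01 ± 2.21 and 6.54 ± 5.66. Ndufs7, which holds the last iron-sulfur cluster before ubiquinone, averaged 2.21 ± 0.931, 0.158 ± 0.315 and 1.55 ± 1.58, with 1 read over the 4 libraries at 24 hours. Ndufs8, another iron-sulfur subunit, was the core subunit with the highest 24-hour fold change, at 4.69 ± 2.47, 13.1 ± 4.11 and 7.74 ± 4.39 and a log2 fold change of 1.44 that missed the threshold (edgeR adjusted p = 0.101). Ndufs1 averaged 94.3 ± 37.0, 71.0 ± 33.5 and 59.3 ± 7.68.

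Most tested nuclear structural subunits had lower fitted values in 24-hour than in control neutrophils, few of them past the test and most at levels of few reads. Of the 30 tested, 26 had a negative log2 fold change against control at 24 hours, with a median of -0.92, and 2 were called, Ndufv3 lower and Ndufa2 higher. Over all 12488 genes 58.7% were lower and the median was -0.23. At 72 hours 21 of the 30 were lower, with a median of -0.42 against -0.02 over all genes, and Ndufv3 alone was called. That median moved to -0.10 without spleen replicate 1, -0.11 without spleen replicate 2, -0.20, -0.22 and -0.28 without 72-hour replicates 1, 4 and 5, -0.23 with a replicate block and -0.13 with edgeR's own filter, which left 13 of the subunits. Between 72-hour and 24-hour neutrophils 22 were higher, with a median of 0.74 against 0.18 over all genes, and none was called, by edgeR at an adjusted p below 0.05, while 7 had an unadjusted p below 0.05 and the DESeq2 Wald test called Ndufa2 lower. The higher values lay mostly among the 21 subunits with a mean under 5 normalized CPM. Of these 3 were lower, with a median of 1.12, beside 35.9% and 0.41 for all genes at such levels. Of the 9 at or above 5 normalized CPM 5 were lower, with a median of -0.25, beside 45.1% and 0.08. These shares describe the genes that passed the filter: 8 of the 39 members would not have passed without the spleen libraries, and 5 not without the 72-hour libraries. The latter 5 were Ndufs6, Ndufb3, Ndufb5, Ndufab1 and Ndufv1, so that their sign between the liver groups was in part fixed. With all 36 counted subunits in the fit, 31 were lower at 24 hours with a median of -1.01.

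The count of lower values rests in part on which thinly counted subunits were tested. The 21 tested structural subunits with a mean under 5 normalized CPM over the 12 libraries each had a negative 24-hour value. Their median was -1.36, beside 65.8% lower and a median of -0.56 for the 5688 genes at such levels. Of these 21 subunits, 7 (Ndufa9, Ndufa1, Ndufs7, Ndufs4, Ndufb3, Ndufb5 and Ndufs5) passed the filter only through the spleen libraries, where they were high, so that their sign was in part fixed. Among the 9 at or above 5 normalized CPM (among them Ndufs1, Ndufs3, Ndufs8, Ndufv3, Ndufa2, Ndufa13, Ndufb2 and Ndufb10), 5 were lower with a median of -0.38, beside 52.9% and -0.06 for the 6800 genes at such levels. For 10 of the 30 there were 3 reads or fewer over the 4 libraries at 24 hours, and with their fold changes set to the bound that 3 reads over the group give, the median of the 30 was -0.96. The other 20 had a median of -0.67, with 16 lower. In summed normalized CPM, where the few well-counted genes dominate, the structural subunits reached 387 to 405 in control, 247 to 368 in 24-hour and 234 to 291 in 72-hour neutrophils. Both liver groups lay below the controls in this sum, and Ndufv3 alone accounted for 95.5 to 141 of it in control.

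By role, the 6 tested accessory subunits of the NADH-binding arm had 24-hour values that ran up to a log2 fold change of 1.0 (Ndufa2). Ndufa7 was the lowest, with 2 reads over the 24-hour libraries against 22 in control, a ratio of 0.121 (95% exact conditional interval 0.0138 to 0.492, counting error only). Its control reads were 6, 15 and 1 in spleen replicates 1 to 3, and it was not called (edgeR adjusted p = 0.165). The 72-hour log2 fold changes of these 6 subunits ran from -1.55 (Ndufv3) to 0.17 (Ndufa2). The 17 other accessory subunits ranged from Ndufb5, which had no reads there, to 0.51 (Ndufb10) at 24 hours, and none was called by edgeR, with 4 at an unadjusted p below 0.05. Ndufb5, a membrane-arm subunit, had 5, 6 and 1 reads in the control spleens and 0 in each 24-hour library. Its control mean was 3.23-fold above the 0.497 normalized CPM that 3 reads over the 24-hour group would give. This leaves out the error of the control reads, and spleen replicate 3, at 0.322, lay below that level. Ndufb5 would not have passed the filter without the spleen libraries, so that its sign was in part fixed. Ndufb7, a subunit on the intermembrane-space side, missed the threshold narrowly (-2.04, edgeR adjusted p = 0.0518) and was called by the DESeq2 Wald test and with edgeR's own expression filter. At 72 hours the other accessory subunits ran up to 0.92 (Ndufb10). The lowest was Ndufa9, with 2 reads against 11 in control (ratio 0.133, interval 0.0143 to 0.610), and it was not called (edgeR adjusted p = 0.339). Ndufa9 would not have passed the filter without the spleen libraries either, so that its sign was also in part fixed. Between the liver groups the extremes were Ndufa8 at -1.07 and Ndufb5, with 0 reads at 24 hours against 8 at 72 hours. Ndufb5 would not have passed the filter without the 72-hour libraries either, so that its sign between the liver groups was also in part fixed. Ndufa4 was at -0.74 at 24 hours and -0.02 at 72 hours, and neither value was called.

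**Figure D4:**
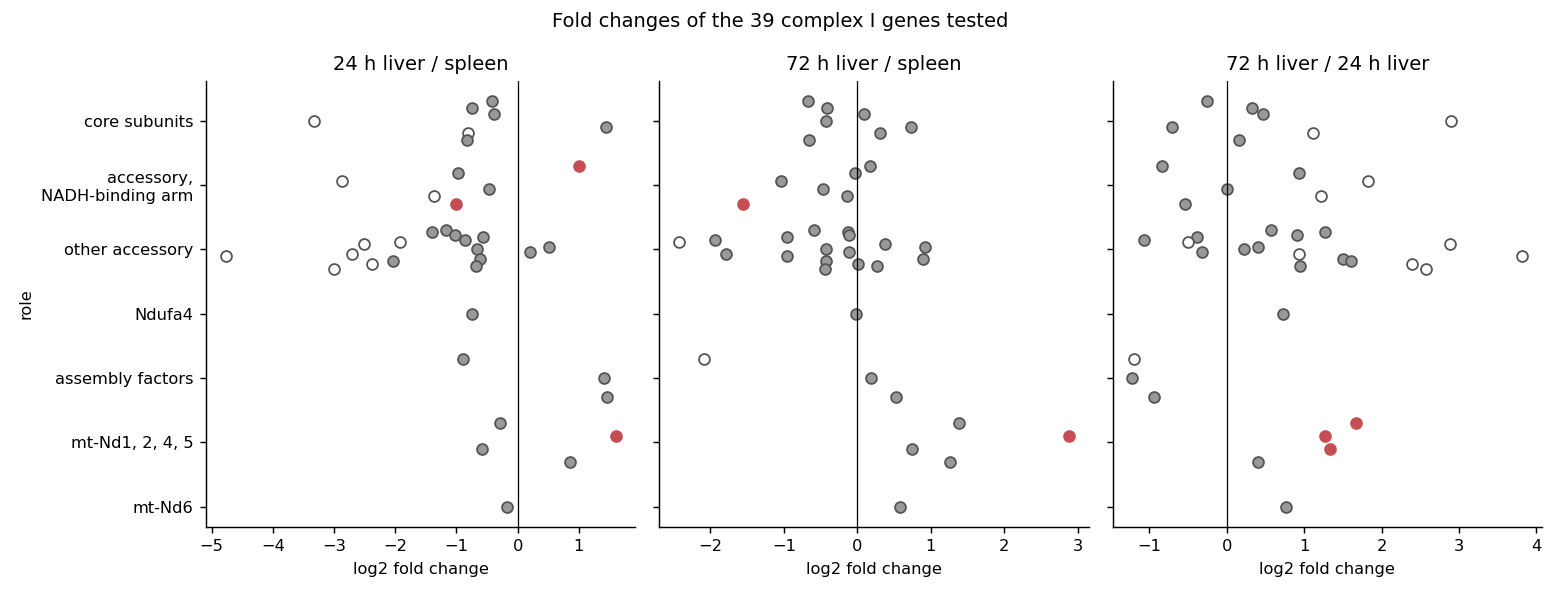
Log2 fold change of each of the 39 tested complex I genes by role, for 24-hour liver against spleen, 72-hour liver against spleen and 72-hour against 24-hour liver. Red points were called, grey points were not, and open points had 3 reads or fewer over the libraries of a group; most open points lie at 24 hours, left of zero in the first panel and right of it in the last.

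Assembly factors were counted thinly, and of the 3 tested 2 had positive and 1 a negative 24-hour value, none of them called. Only Ndufaf1, Ndufaf3, Ndufaf7 and Ndufaf8 had reads, and Ndufaf2, Ndufaf4, Ndufaf5 and Ndufaf6 had none. Ndufaf3, which acts early in assembly together with Ndufaf4, averaged 2.31 ± 0.620 normalized CPM in control (SD, n = 3), 6.17 ± 2.6 in 24-hour (n = 4) and 2.69 ± 1.15 in 72-hour neutrophils (n = 5). Its 24-hour libraries lay above all others, at a log2 fold change of 1.41 that missed the threshold (edgeR adjusted p = 0.172). Ndufaf7, a methyltransferase, had 1.46 (edgeR adjusted p = 0.180), and Ndufaf1, a membrane-arm assembly factor, had -0.89 (edgeR adjusted p = 0.711). At 72 hours Ndufaf1 had 3 reads against 10 in control (ratio 0.220, interval 0.0389 to 0.854) and was not called (edgeR adjusted p = 0.431). It would not have passed the filter without the spleen libraries, where it was highest, so that its sign against control was in part fixed. Ndufaf7 was at 0.52 at 72 hours, and the values between the liver groups ran from -1.23 (Ndufaf3) to -0.94 (Ndufaf7). Summed, the assembly factors reached 3.22 to 9.06 normalized CPM in control, 8.20 to 18.6 in 24-hour and 4.88 to 10.4 in 72-hour libraries. None of the 3 tested was called by edgeR, the DESeq2 Wald test or limma-voom, with 2 at an unadjusted p below 0.05 in 24-hour against control neutrophils and 1 between the liver groups.

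Measured per kilobase of exon, the nuclear members spanned a wide range. Ndufa2 was highest with a mean of 87.0 normalized CPM per kilobase, followed by Ndufv3 with 20.5, Ndufb2 with 9.91 and Ndufs1 with 8.90. Ndufb5 (0.149) and Ndufab1 (0.149), the acyl carrier protein of mitochondria, were lowest among those tested. An annotated exon lies opposite the exons of 16 of the 39 tested members (41.0%), beside 39.8% of all genes tested. In 24-hour against control neutrophils the 13 structural subunits with such an overlap had a median log2 fold change of -0.66 and the 17 without had -1.01. The 8 counted members that were not tested (mt-Nd4l, Ndufa5, Ndufa11, Ndufa12, Ndufb4, Ndufc1, Ndufc2 and Ndufaf8) had 1 to 10 reads each over the 12 libraries.

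**Figure D5:**
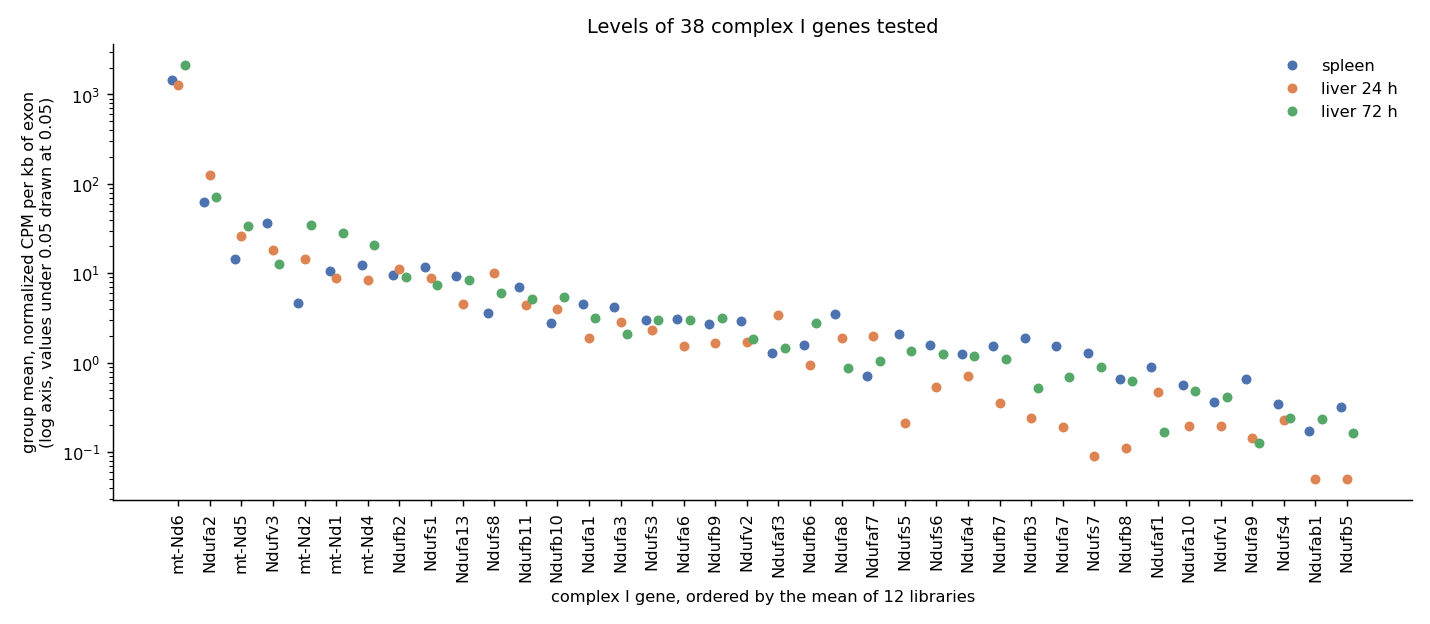
Group means of 38 of the 39 tested complex I genes in normalized CPM per kilobase of exon (log axis), ordered by the mean over 12 libraries, with values under 0.05 drawn at 0.05. mt-Nd6 lies far above all others, and most 24-hour means fall below those of the other groups toward the thinly counted end.

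The other genes of the respiratory chain gave few calls of their own. Of 36 tested nuclear subunits of complexes II to V, 30 were lower at 24 hours with a median log2 fold change of -1.22, and 3 were called lower: Atp5c1 (-2.56, edgeR adjusted p = 0.0288) and Atp5h (-2.31, edgeR adjusted p = 0.0336) of ATP synthase, and Cox6b1 of cytochrome c oxidase (-2.28, edgeR adjusted p = 0.0325). Over all genes tested 58.7% were lower with a median of -0.23 and 4.4% were called lower. The 3 called genes had few reads per library: 0 to 32 for Atp5c1, 1 to 52 for Atp5h and 0 to 36 for Cox6b1. How the values of the 36 genes depend on low counts, the filter and single libraries was not tested. At 72 hours 24 of the 36 were lower with a median of -0.22, beside 51.3% and -0.02 over all genes, and Cox6c was called (-1.15, edgeR adjusted p = 0.0022), which shares 250 exon bases with Vps13b. Cox8a was called higher in 72-hour than in 24-hour neutrophils (2.16, edgeR adjusted p = 0.0446).

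Of the other mitochondrially encoded genes 5 were tested. At 24 hours mt-Co1, a catalytic subunit of cytochrome c oxidase, was lower (-1.34, edgeR adjusted p = 0.029), as were the ribosomal RNAs mt-Rnr2 (-1.14, edgeR adjusted p = 0.0408) and mt-Rnr1 (-1.88, edgeR adjusted p = 0.0454). The control libraries spread widely, at 132 ± 71.8 normalized CPM (SD, n = 3) for mt-Co1, 82.7 ± 44.0 for mt-Rnr2 and 25.7 ± 19.5 for mt-Rnr1. mt-Cytb of complex III was higher at 72 hours (1.75, edgeR adjusted p = 0.00274). Between the liver groups mt-Cytb (1.59, edgeR adjusted p = 0.00735), mt-Rnr2 (1.55, edgeR adjusted p = 0.00888) and mt-Co1 (1.53, edgeR adjusted p = 0.0163) were higher at 72 hours, the direction of mt-Nd1, mt-Nd2 and mt-Nd4. Together with those, 6 of the 10 listed mitochondrially encoded genes that were tested were called between the liver groups, each higher at 72 hours, beside 4.49% of all genes called and 1.65% called higher. These 6 lie on the same strand, which is transcribed as long precursors, so they cannot be counted as separate results. The calls of mt-Nd1, mt-Nd2 and mt-Nd4 were lost without 72-hour replicates 2 and 3. How the values of mt-Co1, mt-Cytb, mt-Rnr1 and mt-Rnr2 depend on single libraries was not tested.

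Genes that act on mitochondrial DNA and its RNA were called in 5 instances, with 8 of 18 listed genes tested: 3 at 24 hours, 1 at 72 hours and 1 between the liver groups, beside 9.75%, 5.33% and 4.49% of all genes. At 24 hours Tbrg4 (-2.40, edgeR adjusted p = 0.00227), an RNA-binding protein of the FASTK family, and Pnpt1 (-2.55, edgeR adjusted p = 0.0336), the mitochondrial RNA exonuclease, were lower. Slirp, which binds mitochondrial mRNAs with Lrpprc, was higher (0.64, edgeR adjusted p = 0.0425). Polg2, the accessory subunit of the mitochondrial DNA polymerase, was lower at 72 hours (-0.74, edgeR adjusted p = 0.0374). Fastk was lower in 72-hour than in 24-hour neutrophils (-0.71, edgeR adjusted p = 0.0234). Slirp, Polg2 and Fastk share exon bases with opposite-strand genes, and Tbrg4 and Pnpt1 do not. Of 9 tested complex I assembly genes with other names none was called by edgeR in any comparison, with 3, 1 and 1 at an unadjusted p below 0.05 in 24-hour against control, 72-hour against control and 72-hour against 24-hour neutrophils. The DESeq2 Wald test and limma-voom each called 1 of them at 24 hours, Ecsit, an assembly factor that also acts in immune signalling, at a log2 fold change of -2.66 and an adjusted p of 0.0525 in edgeR, 0.0386 by DESeq2 and 0.0235 by limma-voom.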

How the data were processed

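The authors aligned the reads to GRCm38 (STAR 2.7.9a in the submitters' processing notes), assigned them to genes with HTSeq-count and deposited the raw counts of 12 libraries as 1 table of whole numbers. The strand setting of HTSeq-count is not given in the sources used here, and most counts lie on features opposite other genes, so that the values are named by the table's gene names without being taken as those genes' mRNA. Its 48709 gene rows were matched to GENCODE vM21 by Ensembl identifier (48349 matched), and its 5 summary rows entered neither library sizes nor tests. The filter of more than 1 CPM in at least 3 libraries left 12488 genes, which were scaled by TMM and tested with edgeR 4.0.16 (quasi-likelihood, R 4.3.3) in 1 fit over the 3 groups, with Benjamini-Hochberg adjustment. Normalized CPM are CPM over the kept genes' counts times the TMM factor. The labels do not give which mice the libraries pool or share, so p-values measure the spread between these libraries. The fit was tested on simulated data for 12488 genes: against spleen at 24 hours it called 44 of 100 genes changed by 2 on the log2 scale, 1 of 100 changed by 1 and 4 unchanged genes, and at 72 hours 47, 3 and 4. Intervals cover counting error only, and bounds cover only that of the group with few reads. The members and lists were chosen with earlier results of these data known. The text gives values in every library for members called in any comparison, for mitochondrially encoded members and for the 5 nuclear members with the highest mean CPM, group means for the core subunits (1 is not reported here), the extremes of each role, and of the other lists up to 4 called genes; Ndufb7 and Ndufaf3 were added after their values were seen. Alternatives were other scalings, limma-voom (limma 3.58.1), DESeq2 1.42.0, other filters and fold limits, fits of 2 groups, a replicate block, and fits without single libraries.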

Additional observations from a re-analysis of the deposited data

Results flagged for a closer look

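In 16 complex I genes, both liver groups were searched for a library far from the rest by Dixon's criterion, which flags about 1 in 20 groups by chance; 2 of 32 were found. Ndufs8 in 24-hour replicate 1 had 6.94 normalized CPM against 14.4 to 15.6 in the other 3 libraries (gap over range 0.865, critical value 0.829). Ndufs7 in the same library had 1 read and the other 3 had none (gap over range 1), a value that any group with a single read takes.

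The change in counts against control splenic neutrophils differed between 72 and 24 hours for 3 genes by the direct edgeR test of 72-hour against 24-hour neutrophils. The difference was 1.67 on the log2 scale for mt-Nd1 (edgeR adjusted p = 0.0373, higher in 4 of 5 72-hour libraries than in any 24-hour library), 1.27 for mt-Nd2 (edgeR adjusted p = 0.0419, higher in 5 of 5) and 1.34 for mt-Nd4 (edgeR adjusted p = 0.0407, higher in 5 of 5).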

How the results depend on the processing

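The 72-hour calls of Ndufv3 and mt-Nd2 against control held in each of the 13 other settings and in each of 12 fits without 1 library. The number of complex I genes called moved as follows. In 24-hour against control neutrophils, 3 genes were called, and limma-voom called 1 (Ndufv3), genes without an opposite-strand gene gave 1 (mt-Nd2), and leaving out 1 library gave 0 to 4. In 72-hour against control neutrophils, 2 were called, testing all counted genes gave 4 (with mt-Nd1 and mt-Nd5), and leaving out 1 library gave 2 to 3. In 72-hour against 24-hour neutrophils, 3 were called, upper-quartile scaling gave 1 (mt-Nd1), genes without an opposite-strand gene gave 0, omitting 72-hour replicates 2 and 3 gave 0, and leaving out 1 library gave 0 to 3. No 24-hour call was left without spleen replicate 1 or 2 or 24-hour replicate 3 or 4, and without 24-hour replicate 2 Ndufb7 alone was called. No call between the liver groups was left without 24-hour replicate 1 or 2 or 72-hour replicate 2 or 3, without spleen replicate 1 or 2 mt-Nd1 alone was called, and without 72-hour replicate 5 Ndufa2 alone. The cause was not tested.

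For mt-Nd6, the 24-hour difference of -0.18 ran from -0.50 to 0.068 when 1 library was left out and turned positive without spleen replicate 1 (0.068) and without 24-hour replicate 1 (0.045). Its 72-hour difference from control ran from 0.26 to 0.83, and that between the liver groups from 0.53 to 1.04, with 0.76 past the threshold when all counted genes were tested. The median of the structural subunits between the liver groups fell from 0.74 to 0.47 with limma-voom, 0.46 in a fit of 2 groups, 0.38 without 72-hour replicates 2 and 3, and 0.23 with edgeR's own filter, which left 13 of them.

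Libraries with the same replicate number did not deviate together strongly (correlations from -0.12 to 0.13 over 10 pairs, with 2 of 11 libraries closest to their own number). With so few libraries a group this cannot settle whether the numbers pair the samples, and the labels do not say. A replicate block called 2 complex I genes in 24-hour against control neutrophils (without Ndufa2), 2 in 72-hour against control and 4 between the liver groups (with Ndufa2). Low counts limit all nuclear members under about 3 reads per library.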
